A study of Mus musculus with 4 samples.

Results

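The nuclear-encoded genes of the mitochondrial respiratory chain were examined in bone marrow-derived macrophage-like cells (BMMs), the precursors that macrophage colony-stimulating factor (M-CSF) keeps alive and that receptor activator of nuclear factor kappa B ligand (RANKL) turns into bone-resorbing osteoclasts. Genes were taken by symbol, as those starting with *Nduf*, *Uqcr*, *Cox4*, *Cox5*, *Cox6*, *Cox7*, *Cox8* or *Atp5*, together with *Sdha*, *Sdhb*, *Sdhc*, *Sdhd* and *Cycs*. The rule found 93 genes, and 86 of them reached 1 FPKM, a fragment count scaled to transcript length and to the mapped total of the library, in at least 1 library, out of 10763 genes that passed the same minimum. These 86 were 36 genes of complex I, 4 of complex II, 8 of complex III, 13 of complex IV, 15 of complex V, *Cycs*, and 9 genes whose symbols match but whose products are not subunits, namely *Ndufaf1* to *Ndufaf7*, *Atp5s* and *Atp5sl*. *Ndufa4*, first described in complex I, was counted with complex IV. The genes of the chain that the mitochondrial genome itself encodes had no values under the symbols searched, so they were not analysed here.

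A single library was made for each of 4 conditions, all from male C57BL/6 mice labelled as 8 weeks old and all cultured with M-CSF for 24 h. *Stat5* cKO BMMs (floxed *Stat5* alleles with the Mx1-Cre transgene) received RANKL and IL-3, *Stat5* fl/fl BMMs received RANKL and IL-3, *Stat5* fl/fl BMMs received RANKL, and *Stat5* fl/fl BMMs received M-CSF alone. Cre in these mice is driven by the interferon-inducible Mx1 promoter, which is not specific to osteoclast precursors, and the mice of both genotypes were littermates injected with poly(I:C), so the floxed alleles and the injection were shared by the controls. With 1 library per condition no difference could be set against the spread between cultures, no test between conditions was possible, and every interval below covers counting error only.

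The respiratory chain passes electrons from NADH (complex I) and succinate (complex II) through ubiquinone to complex III, then through cytochrome c to complex IV, where oxygen is reduced. Complexes I, III and IV pump protons across the inner mitochondrial membrane, and complex V, the ATP synthase, uses the returning protons to make ATP. Osteoclasts are known as cells rich in mitochondria, and growth of the mitochondrial compartment accompanies their differentiation.

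Depth estimated from the spacing of low values was 33400000 to 36950000 fragments per library. *Stat5a* was at 0.168 FPKM and *Stat5b* at 0.191 FPKM in cKO cells under RANKL plus IL-3, against 11.96 and 8.86 FPKM in fl/fl cells with the same cytokines. Osteoclast markers (8 of 10 at 1 FPKM or more, with *Calcr* listed at 0 and *Oscar* under the minimum) summed to 518 FPKM in cKO cells under RANKL plus IL-3, 141 FPKM in fl/fl cells under RANKL plus IL-3 and 1277 FPKM with RANKL, against 45.9 FPKM with M-CSF. The 9 macrophage markers in the table, all at 1 FPKM or more, summed to 1507, 2177, 1277 and 3468 FPKM in the same order of libraries, and the 5 neutrophil markers in the table, also all at 1 FPKM or more, to between 168 and 273 FPKM. No T cell, B cell, erythroid or stromal marker reached 1 FPKM, and 1 of 4 mast cell or basophil markers did, with 1.61 FPKM at most. Dendritic cell markers summed to 105, 535, 93.9 and 138 FPKM. Of these 4 markers, *Itgax* and *Cd74* reached 1 FPKM, and *Flt3* and *Zbtb46* were under it in all libraries. The marker sums differed between the same libraries as the values below, and their part in those values was not tested. In bulk RNA, a different number of cells of a type cannot be told apart from a different amount of RNA per cell.

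Transcripts of the 86 genes together made up 2.64% of all FPKM in cKO cells under RANKL plus IL-3, 2.44% in fl/fl cells under RANKL plus IL-3, 2.86% with RANKL and 2.24% with M-CSF. The RANKL library of fl/fl cells was thus the highest and the M-CSF library the lowest, and the cKO library lay above the fl/fl library that received the same cytokines. Complex V accounted for the largest sum, with 5054 FPKM in cKO cells under RANKL plus IL-3, 4715 FPKM in fl/fl cells under RANKL plus IL-3 and 5310 FPKM with RANKL, against 4082 FPKM with M-CSF. Complexes I, II, III and V had this same order of libraries. Complex IV had another order of its 2 middle libraries, with 3510 FPKM in cKO cells against 3528 FPKM in fl/fl cells under RANKL plus IL-3, and 3578 FPKM with RANKL against 3103 FPKM with M-CSF.

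**Figure D1:**
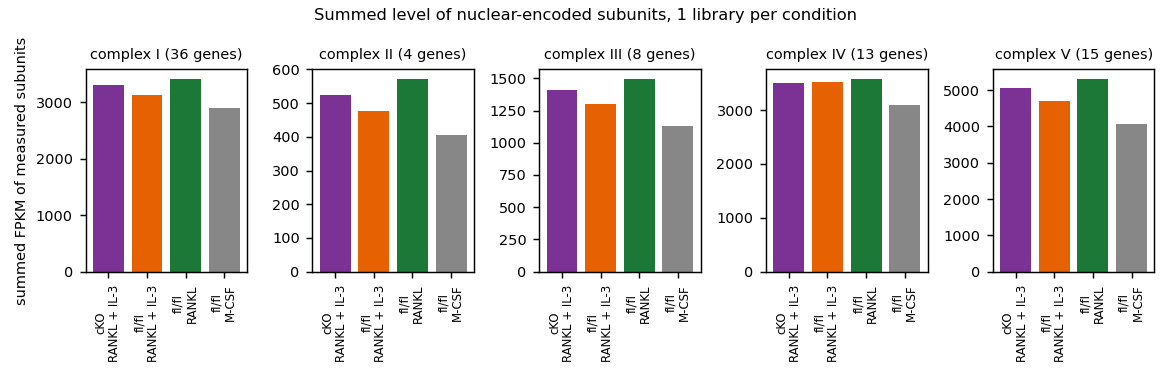
Summed FPKM of the measured genes of each complex (y axis) in the 4 libraries, with 1 library per condition and no error bars. The RANKL library is the highest and the M-CSF library the lowest for complexes I to V, and complex IV shows nearly equal sums in cKO and fl/fl cells under RANKL plus IL-3 (3510 and 3528 FPKM).

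The effect of RANKL was examined first, by setting fl/fl cells with RANKL against fl/fl cells with M-CSF alone. Of the 86 genes, 79 had a log2 ratio above 0, where 61% of all measured genes did, and 7 had a ratio below 0 (38.9% of all genes), with ratios taken on the log2(FPKM + 1) scale. The differences were small. A single gene, *Ndufaf4*, was at least 2-fold higher (5.44% of all genes were) and none was 2-fold lower (6.88% of all genes), while 11 were at least 1.5-fold higher (15.6% of all genes) and none was 1.5-fold lower (13.9%). The median log2 ratio was 0.31 over the 86 genes and 0.14 over all measured genes, and 65 of the 86 genes lay above that all-gene median. Their ratios were also closer together, with an interquartile range of 0.33 against 0.66 over all genes. Among genes with a mean of at least 50 FPKM, a level that 71 of the 86 genes reached, the median was 0.31 for the respiratory chain genes and 0.18 for all 1638 genes. The count of 2-fold higher genes was 0 when libraries were scaled to their median ratio. Thus the group as a whole stood modestly above the typical gene with RANKL, without large differences of single genes.

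**Figure D2:**
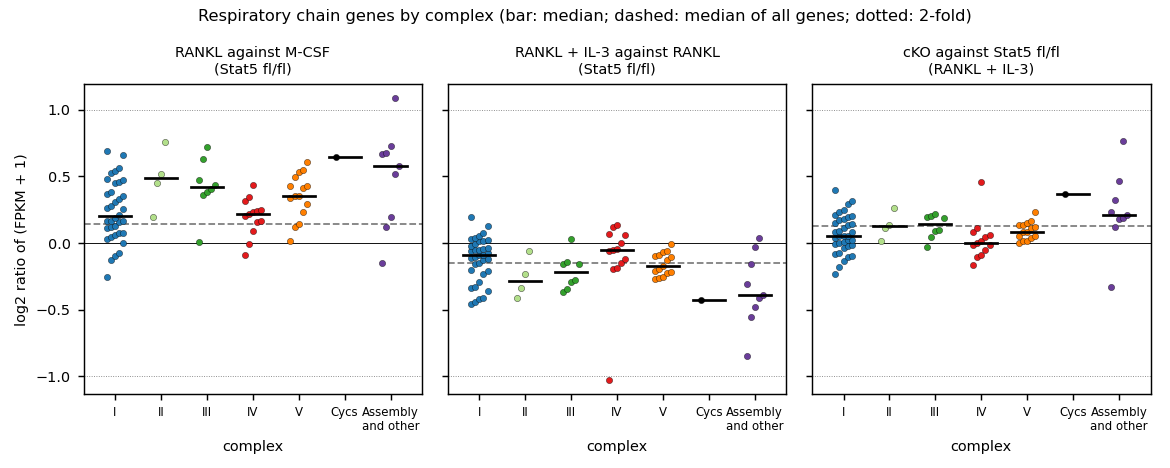
Log2 ratio of each of the 86 genes on the log2(FPKM + 1) scale (1 point per gene), by complex, in the 3 comparisons, with the median of each group and the median of all measured genes drawn as lines. For RANKL against M-CSF most points lie above the all-gene median of 0.14, whereas in the other comparisons they lie around it.

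Complex I takes electrons from NADH through a hydrophilic arm whose core subunits carry the flavin and the iron-sulfur clusters. The 7 measured core subunits of this arm had a median log2 ratio of 0.38 with RANKL, against 0.17 for the 29 accessory subunits, which surround the core. *Ndufv1*, which holds the flavin that accepts electrons from NADH, was at 64.8 FPKM with RANKL, against 40.6 FPKM with M-CSF (log2 ratio 0.66). *Ndufs1*, the largest iron-sulfur subunit, was at 49.7 FPKM with RANKL, against 34.2 FPKM with M-CSF (0.53). *Ndufs3*, *Ndufs7*, *Ndufs8* and *Ndufv2* had log2 ratios of 0.16, 0.38, 0.13 and 0.35, so each core subunit named here was higher with RANKL.

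Accessory subunits of complex I spread on both sides of 0. *Ndufb10*, a subunit of the membrane arm, was the highest, at 175 FPKM with RANKL, against 108 FPKM with M-CSF (0.69), followed by *Ndufab1*, the mitochondrial acyl carrier protein, at 101 FPKM with RANKL, against 67.7 FPKM with M-CSF (0.57). *Ndufa1*, a small X-linked subunit needed for assembly of the membrane arm, was the lowest of all 86 genes, at 68.2 FPKM with RANKL, against 81.5 FPKM with M-CSF (-0.25). *Ndufv3*, *Ndufb11* and *Ndufa13* also had ratios below 0 (-0.12, -0.10 and -0.07), and *Ndufa7*, *Ndufa2* and *Ndufc1* had ratios of 0.00, 0.03 and 0.04. The highest mean levels among complex I genes were those of *Ndufb8*, a membrane arm subunit at 235 FPKM with RANKL, against 196 FPKM with M-CSF, and of *Ndufa2* at 153 and 149 FPKM in the same libraries. Genes of 1 complex therefore did not share a single ratio.

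Complex II, succinate dehydrogenase, belongs to both the respiratory chain and the citric acid cycle. All 4 of its genes were higher with RANKL, and its summed FPKM was 1.41 times that with M-CSF, the highest such ratio of the 5 complexes. *Sdhd*, which anchors the enzyme in the membrane and helps bind ubiquinone, had the highest ratio of the 76 subunits matched by symbol, at 160 FPKM with RANKL, against 94.1 FPKM with M-CSF (0.76). The flavoprotein *Sdha* was at 126 FPKM with RANKL, against 91.5 FPKM with M-CSF (0.45). The iron-sulfur subunit *Sdhb* was at 162 FPKM with RANKL, against 113 FPKM with M-CSF (0.52). The other membrane anchor, *Sdhc*, had the smallest difference of the 4, at 124 FPKM with RANKL, against 108 FPKM with M-CSF (0.20).

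Complex III passes electrons from ubiquinol to cytochrome c. Its core proteins and the Rieske iron-sulfur protein had a median log2 ratio of 0.63, against 0.41 for its 5 small subunits. The core protein *Uqcrc2* was at 106 FPKM with RANKL, against 64.2 FPKM with M-CSF (0.72). The Rieske protein *Uqcrfs1* was at 115 FPKM with RANKL, against 74.2 FPKM with M-CSF (0.63). The small subunits *Uqcrb*, *Uqcr10* and *Uqcrh* had the highest levels of complex III, at 272, 229 and 234 FPKM with RANKL, against 211, 170 and 176 FPKM with M-CSF, whereas *Uqcrq* was nearly equal, at 152 FPKM with RANKL, against 151 FPKM with M-CSF (0.01). Cytochrome c1 (*Cyc1*), the heme subunit of complex III, was not reached by the symbol rule and was at 199 FPKM with RANKL, against 113 FPKM with M-CSF (0.81). *Cycs*, cytochrome c itself, which also acts in apoptosis once released to the cytosol, was at 80.7 FPKM with RANKL, against 51.2 FPKM with M-CSF (0.65).

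Like complex I (0.20 over its 36 genes), complex IV, cytochrome c oxidase, had a median log2 ratio (0.22) close to the all-gene value of 0.14. Its genes were at high levels, with *Cox4i1* at 492 FPKM with RANKL, against 439 FPKM with M-CSF (0.17) and *Cox6b1* at 453 and 363 FPKM in the same libraries (0.32). *Cox6a1* was level, at 449 FPKM with RANKL, against 452 FPKM with M-CSF (-0.01). *Cox5a*, which was at 346 FPKM with RANKL, against 256 FPKM with M-CSF (0.43), had the highest ratio of the complex. *Ndufa4* was at 312 FPKM with RANKL, against 271 FPKM with M-CSF (0.20). None of the 13 genes was 1.5-fold higher (15.6% of all genes) or lower (13.9%).

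The ATP synthase consists of a catalytic F1 head and a proton-conducting membrane part, in which the c ring turns. All 15 of its genes had a ratio above 0, with a median of 0.43 for the 5 F1 genes and 0.55 for the 3 c ring genes. *Atp5b*, the catalytic beta subunit and the gene with the highest level of the 86, was at 788 FPKM with RANKL, against 543 FPKM with M-CSF (0.54). *Atp5a1*, the alpha subunit, was at 461 FPKM with RANKL, against 342 FPKM with M-CSF (0.43). *Atp5o*, the stalk subunit that sets the sensitivity to oligomycin, was at 298 FPKM with RANKL, against 211 FPKM with M-CSF (0.50). *Atp5k*, a small membrane subunit, was at 483 FPKM with RANKL, against 378 FPKM with M-CSF (0.35), and the stalk subunit *Atp5j* was level, at 159 and 157 FPKM in the same libraries (0.02).

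The genes matched by symbol that are not subunits were at low levels and had a median ratio of 0.58, above that of each whole complex. *Ndufaf4*, an assembly factor of complex I, was at 12.4 FPKM with RANKL, against 5.32 FPKM with M-CSF (log2 ratio 1.09, FPKM ratio 2.33). The half-width of its approximate 95% counting interval, taken without the added 1 FPKM, was 0.13. *Ndufaf5* and *Ndufaf6*, also complex I assembly factors, were at 5.26 and 8.70 FPKM with RANKL, against 2.92 and 5.11 FPKM with M-CSF, and both had a ratio of 0.67. *Atp5sl* was at 12.2 FPKM with RANKL, against 6.94 FPKM with M-CSF (0.73), whereas *Atp5s* was at 2.49 and 2.87 FPKM in the same libraries (-0.15). Set against 0, the ratios of 72 of the 86 genes with RANKL exceeded their counting intervals, 69 of them above 0 and 3 below. The median half-width of 0.068 was smaller than the all-gene median ratio of 0.14. The share of all genes beyond such intervals was not computed, so whether this count is particular to these genes is not known.

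Subunits of the chain are in part paralogs used in different tissues, and the table allowed the expressed forms to be read directly. *Cox4i1*, *Cox6a1*, *Cox6b1*, *Cox7a2*, *Cox7b* and *Cox8a*, the widely expressed forms, were at 96.7 FPKM or more in all 4 libraries. The forms known from lung (*Cox4i2*), heart and muscle (*Cox6a2*) and testis (*Cox6b2*) were under 1 FPKM in all libraries, as was *Ndufa4l2*, a paralog of *Ndufa4* known from hypoxic cells, and *Cox7b2*, *Cox8b* and *Cox8c* were listed at 0 throughout. The heart and muscle form *Cox7a1* was the only tissue-restricted form to pass the minimum, at 2.64 FPKM in cKO cells under RANKL plus IL-3, 1.65 FPKM in fl/fl cells under RANKL plus IL-3 and 4.40 FPKM with RANKL, against 4.75 FPKM with M-CSF. The *Cox7a2* gene, by comparison, read 115, 129, 143 and 112 FPKM across these libraries.

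The c ring subunit is encoded by 3 genes whose mature products are the same protein and whose targeting peptides differ. *Atp5g3* was the highest, at 522 FPKM in cKO cells under RANKL plus IL-3, 465 FPKM in fl/fl cells under RANKL plus IL-3 and 560 FPKM with RANKL, against 366 FPKM with M-CSF. In that order, *Atp5g2* was at 353, 300, 358 and 292 FPKM and *Atp5g1* at 221, 201, 234 and 159 FPKM. Each of the 3 genes was highest with RANKL and lowest with M-CSF, and each was higher in cKO than in fl/fl cells with IL-3. The 2 annotated transcripts of *Atp5g1* differed from each other. NM_001161419 was at 95.6 FPKM in cKO cells under RANKL plus IL-3, 65.9 FPKM in fl/fl cells under RANKL plus IL-3 and 111.7 FPKM with RANKL, against 45.4 FPKM with M-CSF. NM_007506 was nearly level, at 125.7, 135.2, 122.2 and 114.0 FPKM. The log2 ratio of RANKL to M-CSF was 1.28 for the first of these transcripts and 0.10 for the other, so the difference of the gene lay mostly in 1 transcript. For *Atp5g3* the ratios of NM_001301721 and NM_175015 were 0.83 and 0.55. Its transcript NM_001301722 was at 6.31 FPKM with RANKL, against 3.40 FPKM with M-CSF (0.73). Transcript values of 1 gene rest on the software's division of shared fragments, and the error of that division is not known here.

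**Figure D3:**
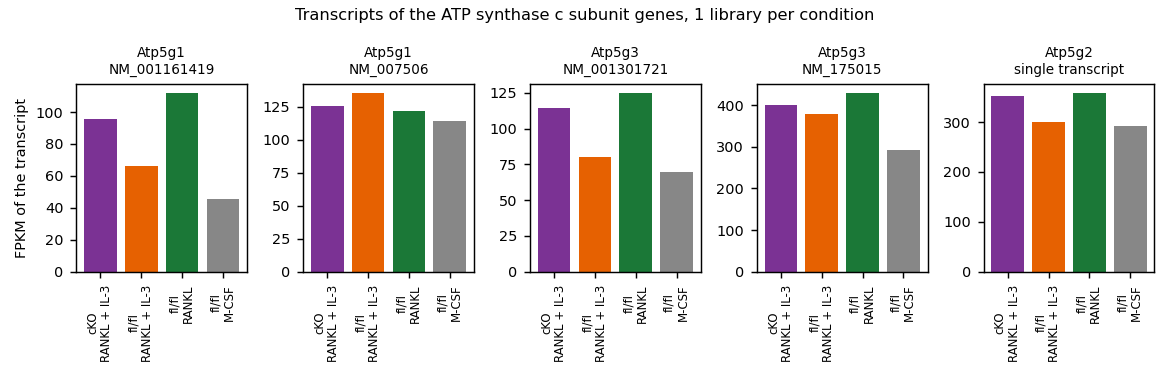
FPKM (y axis) of annotated transcripts of the 3 c ring genes in the 4 libraries, 1 value per library and no error bars. *Atp5g3* NM_001301722, at 6.41 FPKM or less, is not drawn. *Atp5g1* NM_001161419 reads 95.6, 65.9, 111.7 and 45.4 FPKM from the cKO to the M-CSF library, while NM_007506 stays between 114.0 and 135.2 FPKM.

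IL-3, a cytokine that signals through STAT5, was then examined by comparing fl/fl cells under RANKL plus IL-3 with fl/fl cells with RANKL. Of the 86 genes, 70 had a ratio below 0, where 64% of all measured genes did, and 16 a ratio above 0 (36%). The median log2 ratio was -0.13, against -0.15 over all genes, and 46 of the 86 genes lay above the all-gene median, so the group as a whole lay where the typical gene lay. With libraries scaled to their median ratio the median was above 0. No gene was 2-fold higher (6.11% of all genes) and 1 was 2-fold lower (3.47%). That gene was *Cox7a1*, at the low levels given above (log2 ratio -1.03, FPKM ratio 0.374). Its counting half-width, taken without the added 1 FPKM, was 0.68. *Ndufaf4* was the only other gene 1.5-fold lower (12.7% of all genes), at 6.47 FPKM with RANKL plus IL-3 and 12.4 FPKM with RANKL (-0.84), and none was 1.5-fold higher (12.1%). Set against 0, the ratios of 64 genes exceeded their counting intervals, 6 above 0 and 58 below. The all-gene median of -0.15 also lay beyond the median half-width of 0.064, and the share over all genes was not computed.

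The lowest ratios with IL-3 included those of complex I core subunits and assembly factors, but also of the accessory subunits *Ndufb10* and *Ndufab1*. The 7 core subunits of complex I had a median of -0.33, with *Ndufs1* at 37.0 FPKM with RANKL plus IL-3 and 49.7 FPKM with RANKL (-0.42) and *Ndufs7*, an iron-sulfur subunit near the ubiquinone site, at 83.7 and 112 FPKM in the same libraries (-0.41). *Ndufb10* was at 128 FPKM with RANKL plus IL-3 and 175 FPKM with RANKL (-0.44), *Ndufab1* at 73.2 and 101 FPKM (-0.46), *Sdhb* at 122 and 162 FPKM (-0.41) and *Cycs* at 59.8 and 80.7 FPKM (-0.43). The assembly factors *Ndufaf1* and *Ndufaf2* and *Atp5sl* had ratios of -0.48, -0.41 and -0.56. The 29 accessory subunits of complex I, *Ndufb10* and *Ndufab1* included, had a median of -0.05, as had complex IV. *Ndufa1* was at 78.2 FPKM with RANKL plus IL-3 and 68.2 FPKM with RANKL (0.19), the highest ratio of the 86. *Cox7b*, *Ndufa13* and *Cox6a1* followed with ratios of 0.14, 0.13 and 0.12, and *Ndufs4*, *Cox8a*, *Cox5a*, *Ndufv3*, *Ndufb2* and *Uqcrq* had ratios between 0.07 and 0.03. This comparison and the previous one share the RANKL library of fl/fl cells, so the error of that library enters both with opposite sign.

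The loss of STAT5 was examined in cells under RANKL plus IL-3, by comparing cKO with fl/fl cells. Of the 86 genes, 66 had a ratio above 0, where 64.4% of all measured genes did, and 20 a ratio below 0 (35.6%). The median log2 ratio was 0.09, against 0.13 over all genes, and 33 of the 86 genes lay above the all-gene median. No gene was 2-fold higher (2.11% of all genes) or 2-fold lower (4.28%). A single gene, *Ndufaf4*, was 1.5-fold higher (8.43%), at 11.7 FPKM in cKO cells and 6.47 FPKM in fl/fl cells (0.77). Its counting half-width, taken without the added 1 FPKM, was 0.12. None was 1.5-fold lower (8.89%). Set against 0, the ratios of 54 genes exceeded their counting intervals, 45 above 0 and 9 below. The all-gene median of 0.13 also lay beyond the median half-width of 0.064, and the share over all genes was not computed. *Atp5sl* was at 11.3 FPKM in cKO cells and 7.93 FPKM in fl/fl cells (0.47), *Ndufab1* at 96.9 and 73.2 FPKM (0.40), *Cycs* at 77.5 and 59.8 FPKM (0.37), *Ndufb10* at 160 and 128 FPKM (0.32), *Ndufs7* at 103 and 83.7 FPKM (0.30) and *Sdhb* at 146 and 122 FPKM (0.26), followed by *Ndufs1*, *Ndufaf3* and *Atp5g2* (0.25, 0.24 and 0.23). The lowest ratio was that of *Atp5s*, at 1.86 FPKM in cKO cells and 2.60 FPKM in fl/fl cells (-0.33). Among genes at 5 FPKM or more the lowest ratios were those of *Ndufa13*, an accessory subunit also known as GRIM-19 that binds STAT3, at 31.1 FPKM in cKO cells and 36.7 FPKM in fl/fl cells (-0.23), and of *Ndufa3*, *Cox7a2*, *Ndufa1* and *Cox7b* (-0.18, -0.16, -0.13 and -0.11), with *Ndufa6*, *Ndufs4*, *Cox8a*, *Ndufb2* and *Ndufc1* between -0.11 and -0.07. The median was 0.18 for the core subunits of complex I, 0.04 for its accessory subunits, 0.13 for complex II, 0.14 for complex III, 0.00 for complex IV and 0.09 for complex V. The core subunits and complexes II and III thus again lay above complex IV and the accessory subunits, but the differences were small, and the medians of complexes I, IV and V, and that of the whole group, were below 0 once libraries were scaled to their median ratio or upper quartile.

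The RANKL comparison and the cKO comparison share no library, so their ratios could be set against each other gene by gene. Across the 86 genes Pearson's r was 0.62 and Spearman's rho 0.58, and across the 76 subunits alone 0.46 and 0.53. Across all measured genes r was 0.67 and rho 0.71, so the relation of the respiratory chain genes was no closer than that of genes at large. These values describe genes within 4 libraries, and genes are not independent replicates. *Ndufaf4* was the highest gene in both comparisons.

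**Figure D4:**
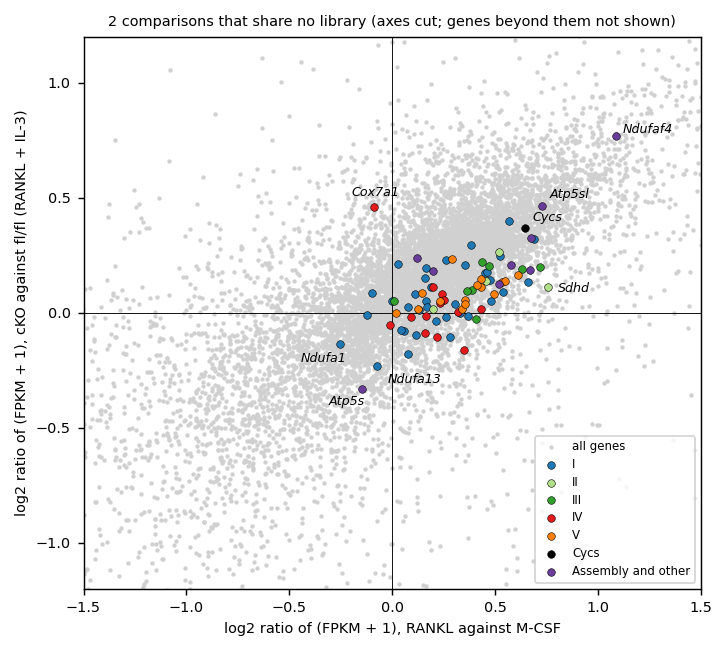
Log2 ratio of cKO to fl/fl cells under RANKL plus IL-3 (y axis) against log2 ratio of RANKL to M-CSF in fl/fl cells (x axis) for the 86 genes, both on the log2(FPKM + 1) scale, 1 point per gene. *Ndufaf4* lies farthest to the upper right (1.09 and 0.77), and the points rise together with Pearson's r of 0.62.

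Core subunits differ from accessory ones in size, and the ratio was therefore examined against transcript length. The 34 subunits with transcripts under 700 nt had a median RANKL ratio of 0.22 and the 42 longer ones 0.35. Across the 76 subunits Pearson's r between the ratio and log2 length was 0.39 and Spearman's rho 0.39, while across all measured genes r was 0.01 and rho 0.00. Among all genes with a mean of at least 50 FPKM the direction was the other way, with a median of 0.28 for 139 short transcripts and 0.17 for 1493 longer ones. Role and length cannot be told apart within the subunits. FPKM estimates of short transcripts also rest on fewer fragments than their level implies.

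Promoter sequence was examined for binding motifs of factors known to act on respiratory chain genes, in the 250 bases before and 50 bases after the RefSeq start of each gene (build GRCm38.p6), which was matched for 74 of the 86 genes and for 8726 measured genes. The NRF1 motif, GCGCA followed by any base and GCGC, was searched like the others on both strands and lay in 19 of the 74 promoters (25.7%), against 12.5% of the 8726. The ETS motif of GABP, CCGGAAG, lay in 17 (23.0%, against 22.1%), the YY1 motif (AA, any base, then ATGGCGGC) in 5 (6.76%, against 3.13%) and the ERR motif TCAAGGTCA in 2 (2.70%, against 0.321%), the last being *Sdhd* and *Atp5g3*. None of these motifs is contained in another. The median RANKL ratio was 0.37 for the 19 genes with the NRF1 motif and 0.26 for those without. The promoters of the 2 genes of highest ratio are given with those of *Cox6a1*, which has the NRF1 motif and a ratio near 0, and of *Ndufa1*, which has the lowest ratio and none of the 4 motifs in this window. Sequences are from RefSeq on the gene's own strand, with motif matches in capitals.
Ndufaf4, chr4:24897833-24898132, plus strand: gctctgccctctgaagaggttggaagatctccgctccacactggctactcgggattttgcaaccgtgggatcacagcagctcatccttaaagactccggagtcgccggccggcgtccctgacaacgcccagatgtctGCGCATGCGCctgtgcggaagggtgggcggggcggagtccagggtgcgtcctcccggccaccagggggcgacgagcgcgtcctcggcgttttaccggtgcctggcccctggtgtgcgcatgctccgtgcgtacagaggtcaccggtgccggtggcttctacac
Sdhd, chr9:50603800-50604099, minus strand: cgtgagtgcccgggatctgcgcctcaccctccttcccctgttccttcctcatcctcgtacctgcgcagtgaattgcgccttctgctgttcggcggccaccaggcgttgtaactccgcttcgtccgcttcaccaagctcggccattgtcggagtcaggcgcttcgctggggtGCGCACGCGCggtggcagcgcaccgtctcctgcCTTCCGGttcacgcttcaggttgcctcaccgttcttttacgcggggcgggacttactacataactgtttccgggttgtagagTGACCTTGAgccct
Cox6a1, chr5:115348909-115349208, minus strand: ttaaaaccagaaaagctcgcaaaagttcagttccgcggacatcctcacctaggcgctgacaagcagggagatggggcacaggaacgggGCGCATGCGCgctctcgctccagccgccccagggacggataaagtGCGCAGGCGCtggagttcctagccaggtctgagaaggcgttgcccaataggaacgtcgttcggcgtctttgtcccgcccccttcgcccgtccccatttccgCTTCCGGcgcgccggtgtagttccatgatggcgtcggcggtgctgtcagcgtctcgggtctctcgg
Ndufa1, chrX:37191189-37191488, minus strand: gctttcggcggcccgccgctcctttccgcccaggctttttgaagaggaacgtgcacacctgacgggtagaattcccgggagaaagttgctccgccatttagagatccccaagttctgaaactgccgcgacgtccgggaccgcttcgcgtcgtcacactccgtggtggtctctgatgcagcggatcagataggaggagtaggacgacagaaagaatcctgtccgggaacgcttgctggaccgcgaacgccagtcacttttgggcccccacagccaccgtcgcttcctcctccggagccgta
*Ndufaf4* carries 1 NRF1 match, which is a palindrome and reads on both strands. *Sdhd* carries an NRF1, an ETS and an ERR match, the last in the bases that follow the start. *Cox6a1* carries 2 NRF1 matches and an ETS match although its level was nearly equal with RANKL and with M-CSF, so the presence of the NRF1 letters did not go with a higher ratio in every gene. A match of letters is not a measured binding site.

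The surrounding mitochondrial genes were described from lists of known function. Protein import and chaperones had the highest median ratio with RANKL, 0.84 over 19 genes, of which 5 were 2-fold higher (5.44% of all genes were). *Hspd1*, the chaperonin that folds imported proteins, was at 326 FPKM in cKO cells under RANKL plus IL-3, 205 FPKM in fl/fl cells under RANKL plus IL-3 and 374 FPKM with RANKL, against 129 FPKM with M-CSF (log2 ratio of RANKL to M-CSF 1.53), and its partner *Hspe1*, *Timm8a1*, *Tomm70a* and *Timm9* had ratios of 1.16, 1.25, 1.06 and 1.04. The median was 0.53 over 33 other assembly factors and 0.52 over 14 citric acid cycle genes, with none 2-fold higher (5.44% of all genes) or lower (6.88%) in either list. Among the assembly factors, *Nubpl*, which inserts iron-sulfur clusters into complex I, was at 11.96, 6.84, 13.4 and 6.49 FPKM from the cKO to the M-CSF library, the same pattern as *Ndufaf4*. The list of inner membrane carriers had a median of 0.33 over 11 genes, of which 2 had a ratio below 0. It also held genes that are not carriers, the prohibitins *Phb* and *Phb2* (0.93 and 0.95) and *Atpif1* (0.36). The median of the carriers alone was not computed. *Slc25a5*, an ADP/ATP carrier, was at 638, 564, 665 and 428 FPKM. The 16 other electron carriers and ubiquinone synthesis genes had a median of 0.34.

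Among 16 measured regulators of mitochondrial biogenesis the median RANKL ratio was 0.41, with 2 genes 2-fold higher (5.44% of all genes). *Ppargc1b*, the coactivator PGC-1 beta, which is known to drive mitochondrial biogenesis in osteoclasts, was at 4.41 FPKM in cKO cells under RANKL plus IL-3, 1.82 FPKM in fl/fl cells under RANKL plus IL-3 and 9.30 FPKM with RANKL, against 0.876 FPKM with M-CSF. *Ppargc1a* was under 1 FPKM in all libraries. *Peo1*, the mitochondrial DNA helicase, was at 7.19, 3.31, 8.64 and 2.54 FPKM in those libraries, and *Tfam*, which packages and transcribes mitochondrial DNA, at 10.2, 6.06, 10.6 and 5.85 FPKM, listed likewise. *Nrf1* itself was at 13.2 FPKM with RANKL, against 11.7 FPKM with M-CSF (0.16), and the ERR alpha gene *Esrra* at 30.3 and 22.8 FPKM (0.40). The regulators had a wider spread of RANKL ratios than the subunits, with interquartile ranges of 0.55 and 0.30. The median of the subunits was 0.29.

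In the IL-3 comparison the medians were -0.48 for protein import, -0.31 for the other assembly factors and -0.27 for the citric acid cycle. They were -0.36 for the regulators, -0.24 for the inner membrane list (prohibitins and *Atpif1* included) and -0.20 for the other electron carriers. All lay below the all-gene value of -0.15, whereas the respiratory chain genes at -0.13 lay just above it. Among genes with a mean of at least 50 FPKM the respiratory chain genes lay just below, at -0.12 against -0.11. In the cKO comparison the medians of the lists in the same order were 0.44, 0.28, 0.17, 0.36, 0.18 and 0.14, against 0.13 over all genes. *Sqrdl*, which feeds electrons from sulfide oxidation into ubiquinone, had the opposite pattern, at 16.9 FPKM in cKO cells under RANKL plus IL-3, 34.97 FPKM in fl/fl cells under RANKL plus IL-3 and 11.6 FPKM with RANKL, against 42.7 FPKM with M-CSF. It was the only gene of the 6 lists that was 2-fold lower with RANKL. The lists were chosen with earlier results of these data known.

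**Figure D5:**
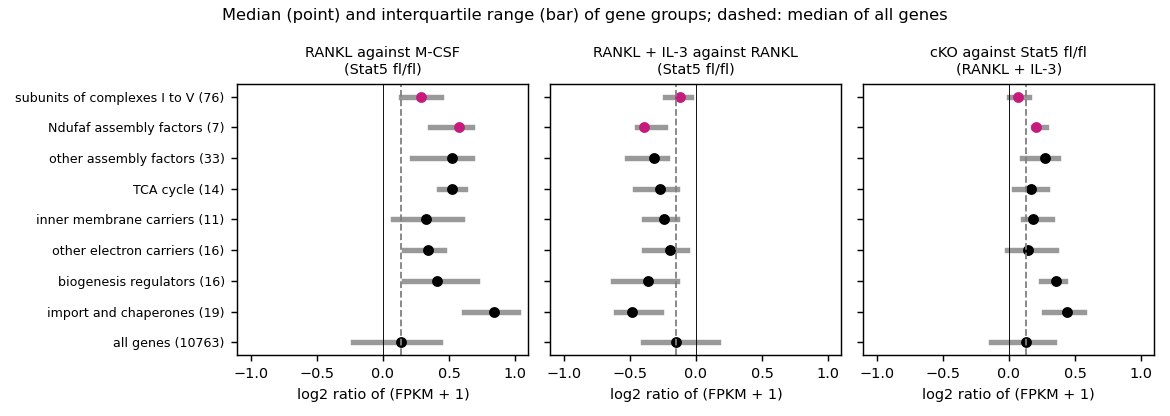
Median log2 ratio (x axis, log2(FPKM + 1) scale) of the respiratory chain genes and of each list of other mitochondrial genes in the 3 comparisons, with the median of all measured genes for reference. Protein import and chaperones lie farthest from 0 in each comparison (0.84 with RANKL, -0.48 with IL-3, 0.44 in cKO cells).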

How the data were processed

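Total RNA of BMMs was made into TruSeq libraries and sequenced on a HiSeq2000 system. Per the submitters' processing notes, the authors used TopHat2 2.0.13 for alignment (build mm10) and Cufflinks 2.2.1 for abundance, and they deposited 1 FPKM value per RefSeq transcript and library. That the unit is FPKM was inferred from the software and the values. Their settings were not stated. Fragments shared by transcripts or by related genes are divided by the software, so transcripts of 1 gene and paralogs are less certain than sums.

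Transcripts were summed per gene, and 46 small RNA genes were left out of ratios and counts. They stayed in the FPKM total of each library, of which the respiratory chain percentages were taken. Log2 ratios used a pseudocount of 1 FPKM, and genes at 1 FPKM or more in any library were kept. Counts of genes at least 2-fold or 1.5-fold apart are given beside the share of all 10763 measured genes. Counting intervals (95%) were approximated from depth and transcript length. Their half-widths are for the ratio without the pseudocount, which at low levels lies farther from 0 than the printed ratio. The printed ratios were nevertheless set against them. Depth was read from the spacing of low values of transcripts of at least 3000 nt. Between 67.4% and 69.4% of those values lay within 0.2 of a whole step, where even spacing gives 40%. Each depth was chosen as the best fit to these same values, so this share is no independent check of it. Scripts were run with Python 3.11.15, numpy 2.4.6, pandas 2.3.3 and matplotlib 3.10.9 and tested on simulated data.

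Genes named were the 3 of highest level per complex, the 10 highest and 10 lowest ratios per comparison among members at 5 FPKM or more, those at least 2-fold apart, isoform families and up to 4 genes of each other list; further genes of known role, among them *Nubpl*, *Cyc1*, *Tfam*, *Nrf1*, *Esrra* and *Ppargc1a*, were chosen after their values were seen. Members and lists were chosen with earlier results of these data known. The alternatives were other pseudocounts, scalings, minimum levels, fold thresholds, 1 transcript per gene, and subunits only. Age is given as 8 weeks in the labels, whereas the study's culture methods give a different age. The values of 1 gene are not reported here.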

Additional observations from a re-analysis of the deposited data

How the results depend on the processing

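No paired analysis was possible because each condition has 1 library. With 1 library per condition the spread between cultures is unknown, and at this depth 14, 22 and 32 of the 86 ratios in the RANKL, IL-3 and cKO comparisons lay within their counting intervals, high-level genes such as *Uqcrq* and *Atp5j* with RANKL included. The median log2 ratio with RANKL stayed above 0 and above the all-gene median under every alternative, and it was 0.15 with libraries scaled to their median ratio. The RANKL medians of complexes I and IV were 0.038 and 0.056 under median-ratio scaling. The 1 gene 2-fold higher with RANKL became 0 under that scaling, at a 4-fold threshold, with subunits only, and among genes with a mean of 50 FPKM or more (an alternative chosen after seeing the data), and 11 at 1.5-fold. The 1 gene 2-fold lower with IL-3 became 0 under median-ratio and upper-quartile scaling, with a minimum of 5 FPKM, at a 4-fold threshold and at a mean of 50 FPKM or more, and 2 at 1.5-fold. The count of 0 genes 2-fold higher in cKO cells became 1 at 1.5-fold.

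Median-ratio scaling brought the median of all genes to -0.0051, 0.0046 and 0.0029 in the RANKL, IL-3 and cKO comparisons, and the medians of the 86 genes for IL-3 and cKO were no larger than that shift. The median with IL-3 was 0.044 under median-ratio and -0.052 under upper-quartile scaling, and by complex it turned above 0 for complexes I, IV and V under median-ratio scaling (0.088, 0.13 and 0.0079) and for complex IV under upper-quartile scaling (0.034). The median in cKO cells was -0.055 under median-ratio and -0.013 under upper-quartile scaling. By complex it was -0.086, -0.016, -0.14 and -0.056 for complexes I, II, IV and V under median-ratio scaling, -0.044, -0.097 and -0.013 for complexes I, IV and V under upper-quartile scaling, and for complex IV -0.0062 with a minimum of 5 FPKM or a mean of 50 FPKM and -0.015 with no minimum. The turns under scaling follow from the shift of all genes, and the 3 of complex IV under other minimum levels are of a median near 0. The position against all genes also changed side with no minimum. The respiratory chain median was then -0.12 against -0.030 with IL-3, and 0.081 against 0.024 in cKO cells. Of the values over the whole group (86 genes, or 71 to 90 under alternatives that changed the genes), 67 were kept, 14 moved and 3 turned. A count was kept if it stayed within 1.5 times. A median was kept if it stayed within the median counting half-width of 0.068, 0.064 and 0.064 for RANKL, IL-3 and cKO. Of the medians by complex, 103 were kept, 21 moved and 14 turned. Counts of 0 that stayed at 0 were among those kept. At a 4-fold threshold a count of 0 at 2-fold could not change. The number kept is thus no measure of how stable the ratios were.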
